A study of Mus musculus with 14 samples.

Results

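The genes described here are C3, Cfb, Cfd, Cfi, and Cfp, which encode complement C3, factor B, factor D, factor I, and properdin of the alternative complement pathway. They were the rows with these symbols in the expression table of each mouse, and all 5 of the 5 were found among the 21878 genes. RNA was measured in kidneys of 14 male C57BL/6J mice. Of the WT mice, 4 were diabetic and 3 were controls, and the Cfb-/- mice were divided in the same way. Diabetic mice had eaten a high-fat diet (HFD) with 60% of calories from fat for 4 weeks and had been injected with streptozotocin (STZ), a toxin of pancreatic beta cells, at 60 mg/kg on 5 days. Control mice ate chow with 10% of calories from fat and were injected with citrate buffer. By the study's description the mice were age-matched, and kidneys were collected many weeks after the STZ injections. The labels give a time of 34 weeks for every mouse, without saying from when. They also give the control mice the treatment entry of the diabetic mice and call the genotype a knockdown, whereas the study describes a knockout of Cfb in the whole animal, so each mouse was assigned by its sample name, with which the diet and disease labels go together. The part of Cfb that was removed is not given in the sources used here.

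The alternative pathway needs no antibody. C3 tickover or C3b already on a surface binds factor B, factor D cleaves the bound factor B, and the resulting C3 convertase cleaves more C3, so that the pathway amplifies itself. Properdin, from Cfp, stabilizes this convertase, and factor I, from Cfi, is the protease that inactivates C3b with the help of cofactors. C3 and factor B are made in liver and also in renal tubular cells, properdin is made mainly by myeloid cells, and factor D, also called adipsin, is made mainly by adipocytes in mice.

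In RefSeq on GRCm38.p6, the build named in the submitters' processing notes, Cfb lies on chromosome 17 from 34856374 to 34862514 on the minus strand. The gene C2, which encodes the classical pathway counterpart of factor B, lies upstream on the same strand, from 34862602 to 34882100. Between the end of C2 and the start of Cfb are 87 bases. GENCODE M21 on the same build also places a readthrough gene, Gm20547, over both, and the expression tables have no row for it. C3 lies on chromosome 17 as well, from 57203967 to 57228136 on the minus strand. Cfd lies on chromosome 10 from 79890853 to 79892655 on the plus strand, Cfi on chromosome 3 from 129836727 to 129875332 on the plus strand, and Cfp on chromosome X from 20925454 to 20931555 on the minus strand.

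RefSeq promoter windows, from 250 bases before to 50 bases after the annotated start, were found for 3 of the 5 genes, C3, Cfd, and Cfp. These 3 are shown because no window was found for Cfb or Cfi. They are also the genes called higher with diabetes in WT mice, as described in what follows. Capitals mark matches, on either strand, to 4 sets of letters, which were a TATA box (TATAAA), a kappaB-like motif (GGGANNNNCC), a C/EBP-like motif (TTNNGNAA), and an interferon response-like motif (GAAANNGAAA). The windows are chr17:57228087-57228386 on the minus strand for C3, chr10:79890603-79890902 on the plus strand for Cfd, and chrX:20931506-20931805 on the minus strand for Cfp.
C3: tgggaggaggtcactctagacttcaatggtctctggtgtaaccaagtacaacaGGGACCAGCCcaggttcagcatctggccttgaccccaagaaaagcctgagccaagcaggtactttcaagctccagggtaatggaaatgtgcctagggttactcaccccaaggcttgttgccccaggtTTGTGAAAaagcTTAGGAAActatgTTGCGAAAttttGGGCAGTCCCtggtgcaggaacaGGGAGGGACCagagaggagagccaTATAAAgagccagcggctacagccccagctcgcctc
Cfd: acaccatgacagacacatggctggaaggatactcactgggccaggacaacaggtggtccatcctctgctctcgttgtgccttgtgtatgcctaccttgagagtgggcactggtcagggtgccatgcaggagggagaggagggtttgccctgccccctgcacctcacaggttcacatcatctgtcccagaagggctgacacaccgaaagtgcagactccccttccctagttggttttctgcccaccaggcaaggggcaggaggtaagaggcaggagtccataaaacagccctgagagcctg
Cfp: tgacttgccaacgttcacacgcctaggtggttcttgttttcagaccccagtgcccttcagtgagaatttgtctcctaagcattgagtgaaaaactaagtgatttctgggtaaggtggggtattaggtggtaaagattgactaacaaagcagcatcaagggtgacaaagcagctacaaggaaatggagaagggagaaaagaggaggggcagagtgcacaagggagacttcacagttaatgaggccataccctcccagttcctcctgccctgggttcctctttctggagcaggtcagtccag
In the C3 window, kappaB-like letters stood at -197 to -188 and at -10 to -1 on the strand of the gene and at -33 to -24 on the other strand, counted from the annotated start. C/EBP-like letters stood at -70 to -63, -58 to -51, and -45 to -38, the last of them reading on both strands, and TATAAA stood at 15 to 20 after the start. The windows of Cfd and Cfp held none of the 4. Of 32851 promoter windows of this length, 20.7% held the kappaB-like letters, 40.7% the C/EBP-like letters, 13.6% TATAAA, and 3.44% the interferon response-like letters. A match describes letters only.

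Values are FPKM, fragments counted relative to transcript length and to sequencing depth, so levels can be compared between genes within a mouse. Differences between diabetic and control mice also depend on how the values are scaled, as described in what follows. Sums per mouse were 330246 to 488196, relative depth estimated from the steps between low values was 0.853 to 1, and the number of reads is unknown. No 2 mice had identical values, and correlations within groups were 0.99 to 0.995. All 10 kidney identity genes were above 0 in every mouse, with 2 called higher and 3 lower with diabetes in WT mice and 2 higher and 4 lower in Cfb-/- mice. After median-ratio scaling, 0 were called higher in WT mice. Kap, an androgen-regulated transcript of the proximal tubule, was the most abundant of them at 39710 to 67840 FPKM in control mice and 6671 to 16010 FPKM in diabetic mice. Slc34a1 and Slc5a2, which encode proximal tubular phosphate and glucose carriers, also fell with diabetes in both genotypes, with log2 differences of -1.34 and -2.99 in WT mice and of -1.29 and -2.004 in Cfb-/- mice. Over all tested genes, 36.2% were called higher and 9.97% lower with diabetes in WT mice, and 27.4% and 6.4% in Cfb-/- mice. In RNA of kidney tissue, fewer cells of a type and less RNA per cell cannot be told apart. The study's description does not say which part of the kidney was sequenced, and differences in the part taken were not tested. Differences are given on the scale of log2(FPKM + 0.1), which understates the change of low genes, from limma fitted to 14912 genes in all 14 mice, and a gene is called at a Benjamini-Hochberg adjusted p under 0.05 over all of them.

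Cfb, the deleted gene, was the most abundant of the 5 in WT kidneys and was low in every Cfb-/- mouse. WT control mice had 131, 62.2, and 126 FPKM, and WT diabetic mice had 78.8, 81.9, 72.7, and 56.7 FPKM. Cfb-/- control mice had 2.20, 2.22, and 2.05 FPKM, and Cfb-/- diabetic mice had 1.38, 1.43, 1.13, and 1.42 FPKM. The genotypes did not overlap, and every kidney matched its label. The level was 49.2-fold lower in Cfb-/- control mice (log2 difference -5.48 ± 0.23 SE, adjusted p = 7.19e-09 from limma) and 54.1-fold lower in Cfb-/- diabetic mice (-5.65 ± 0.20 SE, adjusted p = 6.24e-10 from limma). Some signal remained in all 7 Cfb-/- mice, and which part of the gene it came from cannot be read from a value per gene.

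Cfb did not pass the threshold for diabetes in WT mice, where its mean was 72.5 ± 11.2 FPKM (SD, n = 4) with diabetes and 106 ± 38.2 FPKM (SD, n = 3) without (log2 difference -0.49 ± 0.21 SE, adjusted p = 0.0712 from limma). The groups overlapped because WT control mouse 2 had 62.2 FPKM. Without that mouse the difference was -0.84 and the adjusted p from limma was 0.000878. WT control mouse 2 also had the highest Kap, at 67840 FPKM, and the highest sum of FPKM, at 488196, and the part of these in its Cfb level was not tested. With the values rescaled by median ratios, all 14 mice gave -0.77 and an adjusted p of 0.00453 from limma, and with quantile normalization -0.33 and 0.296. The residual signal in Cfb-/- mice was lower with diabetes (-0.66 ± 0.21 SE, adjusted p = 0.0272 from limma), from 2.16 ± 0.0913 FPKM (SD, n = 3) to 1.34 ± 0.144 FPKM (SD, n = 4), without overlap. Without Cfb-/- diabetic mouse 3, Cfb-/- control mouse 1, or Cfb-/- control mouse 2, its adjusted p from limma was 0.063, 0.0717, and 0.0781, respectively.

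C3 rose with diabetes in both genotypes and had the largest diabetes response of the 4 members above 0 in all mice. WT control mice had 2.03, 2.19, and 1.64 FPKM, and WT diabetic mice had 35.6, 33.7, 40.01, and 44.8 FPKM. Cfb-/- control mice had 2.15, 1.91, and 3.10 FPKM, and Cfb-/- diabetic mice had 38.3, 25.5, 26.5, and 43.6 FPKM. Every diabetic mouse was above every control mouse. The mean rose 19.7-fold in WT mice, to 38.5 ± 4.95 FPKM (SD, n = 4), with a log2 difference of 4.24 ± 0.20 SE (adjusted p = 1.37e-08 from limma). In Cfb-/- mice it rose from 2.39 ± 0.629 FPKM (SD, n = 3) to 33.5 ± 8.92 FPKM (SD, n = 4), with a log2 difference of 3.75 ± 0.20 SE (adjusted p = 7.47e-08 from limma). Deletion of Cfb gave no call for C3 in diabetic mice, where the log2 difference was -0.23 with a 95% confidence interval of -0.63 to 0.17, or in control mice, where it was 0.26 with an interval of -0.21 to 0.72.

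**Figure D1:**
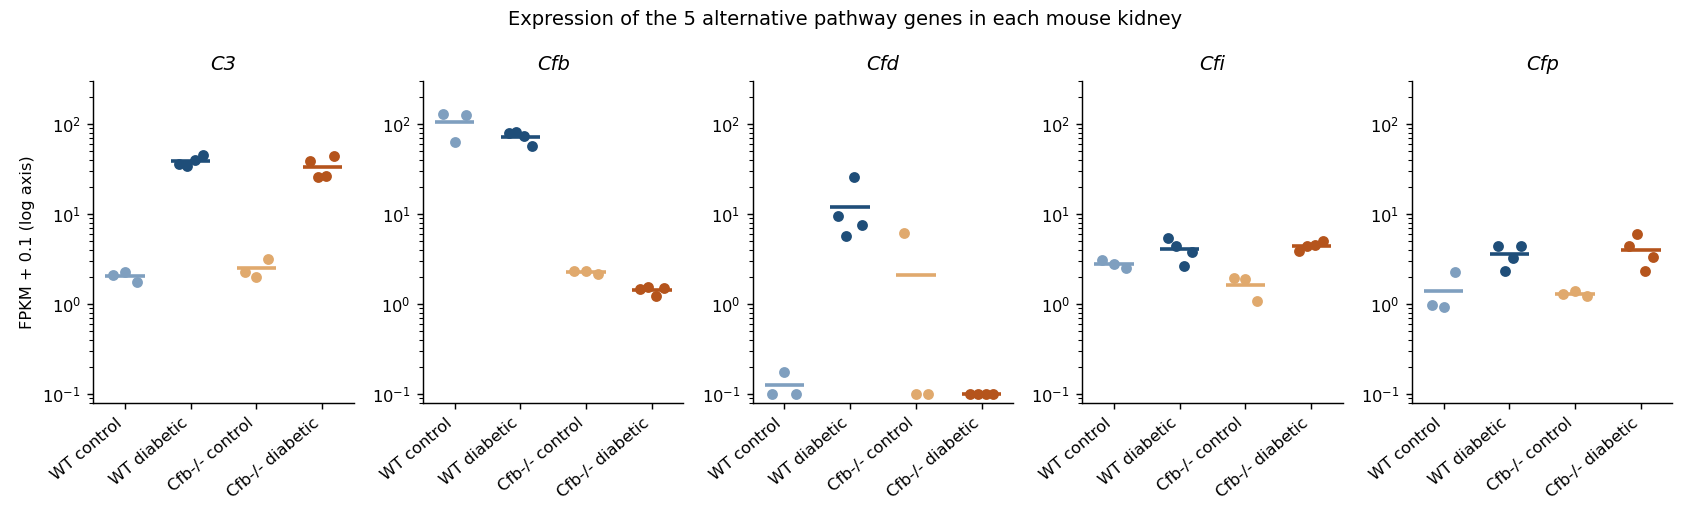
FPKM + 0.1 on a log axis for each of the 5 genes, with 1 point per mouse and a bar at the group mean, in WT control, WT diabetic, Cfb-/- control, and Cfb-/- diabetic mice. C3 is at 1.64 to 3.10 FPKM in control mice and at 25.5 to 44.8 FPKM in diabetic mice of both genotypes, Cfb separates by genotype, and Cfd lies at the floor of 0.1 in 8 mice listed at 0.

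The ratio of the 2 convertase components, Cfb to C3, was lower in every diabetic mouse than in every control mouse of its genotype. WT control kidneys held 28.4 to 76.7 times as much Cfb as C3 per length of transcript. In WT diabetic kidneys the ratio of Cfb to C3 was 1.26 to 2.43, so that the 2 transcripts were within 2.43-fold of each other. The mean log2 ratio decreased by 4.79 with diabetes in WT mice (exact two-sided permutation test p = 0.0571, the smallest p that 4 mice against 3 allow). In Cfb-/- mice the ratio was 0.663 to 1.16 without diabetes and 0.0326 to 0.0559 with diabetes, so diabetic Cfb-/- kidneys held 17.9 to 30.7 times as much C3 as residual Cfb. There the mean log2 ratio decreased by 4.50 (exact two-sided permutation test p = 0.0571).

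The share of Cfb in the summed FPKM of the 5 genes was 91.4% to 95.7% in WT control mice and 48.5% to 64.1% in WT diabetic mice. C3 took 1.24% to 3.22% in WT control mice and 26.4% to 38.3% in WT diabetic mice. In Cfb-/- diabetic mice, C3 was the main member, with 68.8% to 82.1% of the sum. The sum itself was 68.0 to 137 FPKM in WT control mice and 117 to 144 FPKM in WT diabetic mice, ranges that overlapped.

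**Figure D2:**
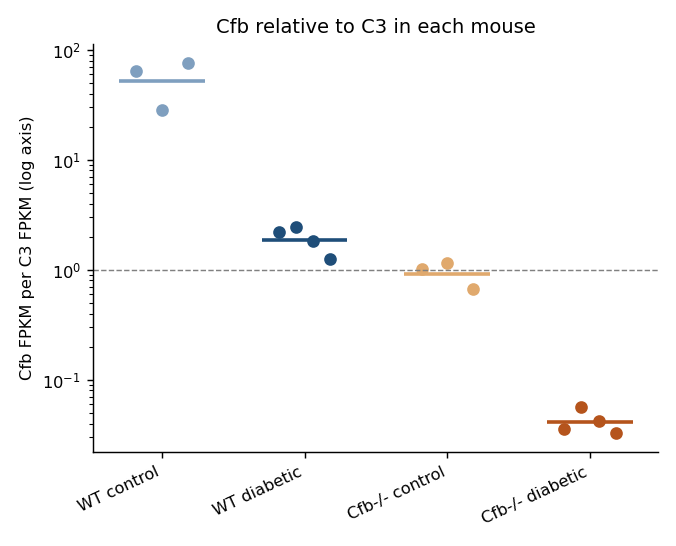
Ratio of Cfb FPKM to C3 FPKM on a log axis, with 1 point per mouse, a bar at the geometric mean of each group, and a dashed line where both are equal. The ratio was 28.4 to 76.7 in WT control mice and 1.26 to 2.43 in WT diabetic mice, and the Cfb-/- diabetic mice are lowest at 0.0326 to 0.0559.

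Cfp, which encodes properdin, rose with diabetes in both genotypes. WT control mice had 0.882, 0.837, and 2.17 FPKM, and WT diabetic mice had 4.36, 2.24, 3.13, and 4.33 FPKM. Cfb-/- control mice had 1.21, 1.29, and 1.12 FPKM, and Cfb-/- diabetic mice had 4.29, 5.84, 2.20, and 3.20 FPKM. No control mouse reached a diabetic mouse of its genotype, although WT control mouse 3 at 2.17 FPKM came close to WT diabetic mouse 2 at 2.24 FPKM. The rise was 2.71-fold in WT mice (log2 difference 1.45 ± 0.35 SE, adjusted p = 0.00409 from limma) and 3.22-fold in Cfb-/- mice (1.52 ± 0.35 SE, adjusted p = 0.00364 from limma). Between genotypes the log2 difference was 0.10 in diabetic mice (95% confidence interval -0.58 to 0.79) and 0.03 in control mice (-0.76 to 0.82).

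Cfi, which encodes the protease that inactivates C3b, rose with diabetes in Cfb-/- mice and was not called in the other comparisons. WT control mice had 2.998, 2.72, and 2.44 FPKM, and WT diabetic mice had 5.27, 4.36, 2.54, and 3.64 FPKM. Cfb-/- control mice had 1.84, 1.80, and 0.982 FPKM, and Cfb-/- diabetic mice had 3.83, 4.32, 4.43, and 4.87 FPKM. The Cfb-/- control mice were lower than every other mouse. The rise in Cfb-/- mice was 2.83-fold (log2 difference 1.49 ± 0.24 SE, adjusted p = 0.000268 from limma). In WT mice the difference was 0.48 ± 0.24 SE with overlap of the groups (adjusted p = 0.106 from limma), and without WT diabetic mouse 3 it was 0.67 with an adjusted p of 0.0251.

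Between control mice, Cfi was 1.76-fold lower in Cfb-/- mice (log2 difference -0.83 ± 0.25 SE, unadjusted p = 0.00534 and adjusted p = 0.244 from limma). The groups did not overlap, which held for 13.8% of all tested genes in that comparison, and 17.5% of them had an unadjusted p under 0.05. The diabetes response of Cfi differed between genotypes by 1.01 on the log2 scale, larger in Cfb-/- mice (exact permutation test over 1400 assignments, two-sided p = 0.0286). Genotype was permuted within diabetic and within control mice, for Cfi as for Cfd in what follows. The test thus assumes no genotype effect in either, and its p is not specific to a difference in response. In the fit across all genes the interaction of genotype and diabetes for Cfi had an unadjusted p of 0.00895 from limma (adjusted p = 0.779), and 5.77% of all genes had an unadjusted interaction p under 0.05.

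Cfd, which encodes factor D, was listed at 0 in 8 of 14 mice. WT diabetic mice had 9.39, 5.56, 25.5, and 7.44 FPKM, and all 4 Cfb-/- diabetic mice were listed at 0. Of the Cfb-/- control mice, mouse 1 had 6.01 FPKM and the other two were listed at 0, and of the WT control mice, mouse 2 had 0.0755 FPKM and the other two were listed at 0. Of the 2708 genes with a mean of at least 20 FPKM, 0 were listed at 0 in any mouse. No group mean of Cfd reached that level, so this does not show whether values of 0 were usual at its level. Cfd passed the filter on low values through the 4 WT diabetic mice and Cfb-/- control mouse 1 alone, and a fitted difference against groups at 0 depends on the added 0.1 and is no measure of fold.

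In WT mice, Cfd was called higher with diabetes (log2 difference 6.39 ± 1.05 SE, adjusted p = 0.000306 from limma). Without the filter on low values the adjusted p was 0.000753, and the difference was 3.44 with an added 1 and 8.93 with an added 0.01, so its size is set by the added value. Between diabetic mice of the 2 genotypes it did not pass (-6.66 ± 0.97 SE, adjusted p = 0.0523 from limma), and the exact two-sided permutation p was 0.0286, the smallest that 4 mice against 4 allow. The fit shares its spread over all groups, and Cfb-/- control mouse 1 stood far from its group. Without Cfb-/- control mouse 1 the adjusted p from limma was 7.6e-07, without Cfb-/- control mouse 2 it was 0.0315, without Cfb-/- control mouse 3 it was 0.029, and with only the diabetic groups it was 0.000166. With Cfb-/- control mouse 1 left out, every mouse in both Cfb-/- groups was listed at 0, so these groups had no spread. In the fit of the diabetic groups alone, the Cfb-/- mice had none either. The smaller p-values thus rest on values at the floor and were not read as a genotype difference. The interaction of genotype and diabetes was -8.36 for Cfd (exact permutation test over 1400 assignments, two-sided p = 0.0143) and was not called (adjusted p = 0.634 from limma). It was -4.38 with an added 1 and -12.01 with an added 0.01, and without Cfb-/- control mouse 1 it was -6.39 with an adjusted p of 0.00115 from limma. That p-value carries the same limit of groups without spread.

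The adipocyte genes Adipoq and Plin1 were highest in the 5 mice with the most Cfd. Adipoq, which encodes the adipocyte hormone adiponectin, had 0.623, 1.02, 3.72, and 0.649 FPKM in WT diabetic mice and 0 to 0.0364 FPKM in Cfb-/- diabetic mice. In Cfb-/- control mouse 1 it had 1.82 FPKM, and the other two Cfb-/- control mice were listed at 0. Plin1, which encodes the lipid droplet protein perilipin, was listed at 0 in all Cfb-/- diabetic and all WT control mice, had 0.0792 to 0.442 FPKM in WT diabetic mice, and had 0.604 FPKM in Cfb-/- control mouse 1. Cidec, which encodes another lipid droplet protein, was listed at 0 in 2 mice, with 0.349 to 0.931 FPKM in WT diabetic mice and 0.102 to 0.386 FPKM in Cfb-/- diabetic mice. WT diabetic mouse 3 had the highest Cfd and the highest Adipoq of all mice. The adipocyte marker Retn followed as well, at 0.0769 to 0.392 FPKM in WT diabetic mice and 0.135 FPKM in Cfb-/- control mouse 1. It was listed at 0 in all other mice. Some other adipocyte markers did not follow in each mouse. Plin4 reached 0.445 FPKM in Cfb-/- diabetic mouse 1, above the 0.363 and 0.347 FPKM of WT diabetic mice 1 and 2, and Thrsp was at 3.85 FPKM in WT control mouse 1 and 2.20 FPKM in WT diabetic mouse 1.

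Of the 10 adipocyte markers, 9 were tested, 6 were called higher with diabetes in WT mice, 1 was called higher with diabetes in Cfb-/- mice (Fabp4, adjusted p = 0.154 from limma after median-ratio scaling), and 0 were called between genotypes by limma in diabetic or control mice. Their summed level was 48.6 to 78.7 FPKM in WT diabetic mice, 35.01 to 46.1 FPKM in Cfb-/- diabetic mice, 17.8 to 47.8 FPKM in Cfb-/- control mice, and 21.3 to 35.6 FPKM in WT control mice. Much of that sum was Fabp4, which capillary endothelium also expresses. Urothelial markers summed to 16.3 to 49.9 FPKM in 3 WT diabetic mice and to 1.08 FPKM in WT diabetic mouse 1, against 1.64 to 4.08 FPKM in Cfb-/- diabetic mice. Cfd was at 9.39 FPKM in WT diabetic mouse 1, where urothelial markers were low. The part of adipocytes or of urothelium in the levels of Cfd was not tested.

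**Figure D3:**
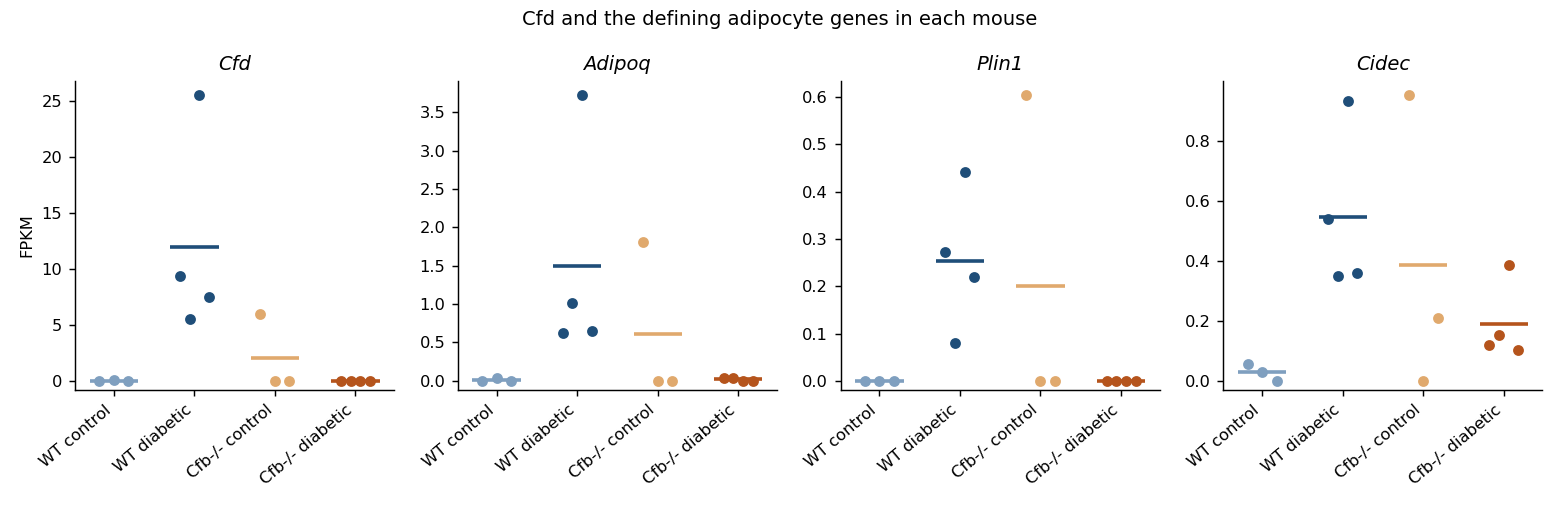
FPKM of Cfd and of the adipocyte genes Adipoq, Plin1, and Cidec on linear axes, with 1 point per mouse and a bar at the group mean. Cfd, Adipoq, and Plin1 lie above 0 in the 4 WT diabetic mice and in Cfb-/- control mouse 1, with Cfd at 6.01 FPKM in the latter, and lie at or near 0 in the other mice.

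Counted over the 5 genes, 3 were called higher with diabetes in WT mice (C3, Cfd, and Cfp) and 0 lower, where 36.2% of all tested genes were called higher and 9.97% lower. In Cfb-/- mice, 3 were called higher (C3, Cfi, and Cfp) and 1 lower (the residual Cfb), where 27.4% of all genes were called higher and 6.4% lower. Diabetic and control mice did not overlap for 3 of the 5 in WT mice and for 4 of the 5 in Cfb-/- mice, against 45.3% and 42.2% of all genes. Cfd is in these counts although its groups other than WT diabetic mice were at or near 0 in all but 1 mouse. These shares of all genes are large, so the counts alone set the members little apart. The deleted gene Cfb was the only gene called between genotypes by limma, in diabetic as in control mice, which is 0.00671% of the 14912 genes in each. Groups did not overlap for Cfb and Cfd among diabetic mice, where this held for 2.75% of all genes. They did not overlap for Cfb and Cfi among control mice, where this held for 13.8% of all genes. At an unadjusted p under 0.05 from limma, 448 of the 14912 genes passed between genotypes in diabetic mice and 2614 (17.5%) in control mice. In diabetic mice this is fewer than the share of 0.05 that such a threshold passes when no gene differs.

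The median log2 difference of all genes with diabetes was 0.29 for WT and 0.22 for Cfb-/- mice, whereas it was 0.03 and -0.01 once values were scaled by median ratios. Scaling also moved the split of calls, of which 78.4% were higher in WT mice as deposited, 50.3% after median-ratio scaling, and 44.2% after quantile normalization, while the Cfb-/- mice gave 81.0%, 56.8%, and 49.1% in that order. With median-ratio scaling the log2 difference of C3 was 3.96 in WT and 3.51 in Cfb-/- mice, that of Cfp was 1.19 and 1.29, and that of Cfi was 0.21 and 1.25. C3 and Cfp in both genotypes and Cfi in Cfb-/- mice were called higher under both scalings. Cfd in WT mice was called as well, with the size of its difference still set by the added value.

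**Figure D4:**
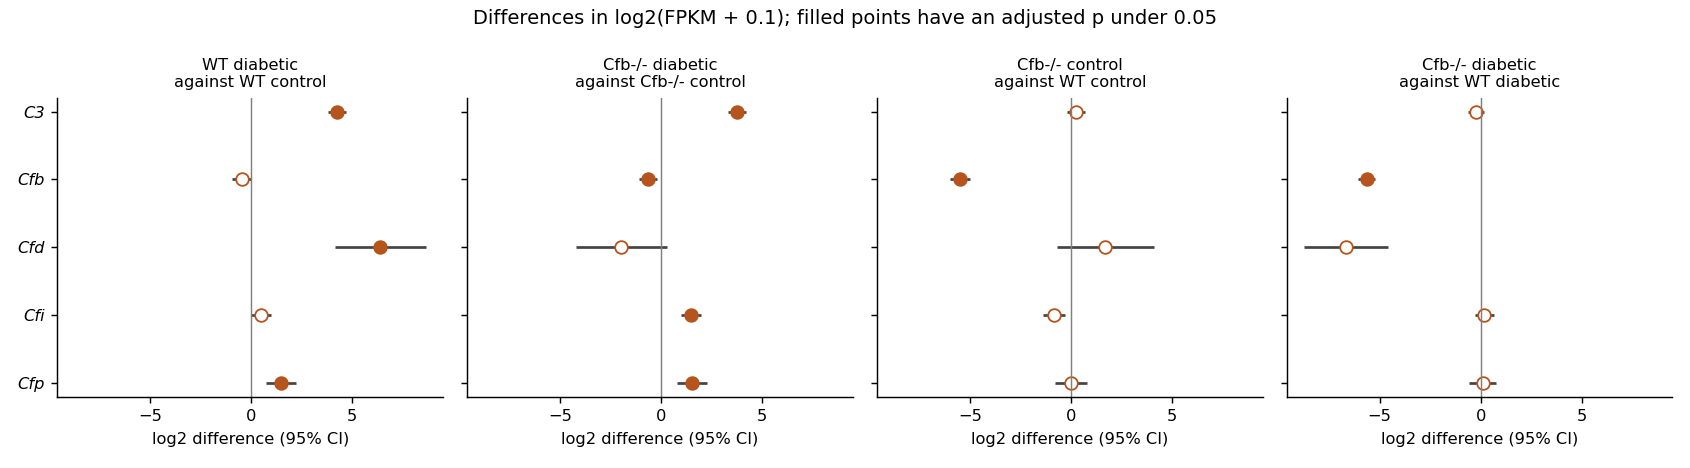
Difference in log2(FPKM + 0.1) of each gene in 4 comparisons, with 95% confidence intervals from limma and filled points at an adjusted p under 0.05. C3 is at 4.24 and 3.75 for diabetes in WT and Cfb-/- mice, Cfb is at -5.48 and -5.65 for genotype in control and diabetic mice, and the interval of Cfd is the widest in each comparison.

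In order of level, C3 ran from WT diabetic over Cfb-/- diabetic and Cfb-/- control to WT control mice, and only its step between the diabetic and control groups was without overlap. Cfb ran from WT control over WT diabetic and Cfb-/- control to Cfb-/- diabetic mice, and its neighbours overlapped only within WT mice. Cfi and Cfp shared an order, from Cfb-/- diabetic over WT diabetic and WT control to Cfb-/- control mice. For Cfp the neighbouring groups overlapped except at the step from WT diabetic to WT control mice, and for Cfi they overlapped except at the step from WT control to Cfb-/- control mice. The ordered steps for Cfd overlapped throughout, since the 0 values and Cfb-/- control mouse 1 spread over 3 groups.

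Within groups, the correlations of their deviations from the group means of log2(FPKM + 0.1) between members ranged over 14 mice from -0.396 for C3 and Cfi to 0.148 for Cfd and Cfi, where Cfb is left out because its values in Cfb-/- mice are residual. Among 11380 genes (11381 for Cfd) with a mean log2 value of at least 0, the gene most like Cfp was Sox18, an endothelial transcription factor, with r = 0.954, followed by Dnajc7 with 0.946 and Adamts10 with 0.932. The closest to C3 were Magix (0.849), Pou3f3 (0.819), and Hprt (0.805), and Itgb3bp (0.846) and Setdb2 (0.802) were close to Cfi. For Cfd they were Mocs1 (0.864), Thrsp (0.863), and Slc6a9 (0.799). Over the 7 WT mice, Cfb was nearest to Foxk2 (0.998), Krit1 (0.998), and Spen (0.994). All 3 were lowest in WT control mouse 2, as was Cfb within its group, with Foxk2 at 4.29 FPKM there against 6.86 and 6.49 FPKM in the other WT control mice. These points share libraries and depth.

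The regulators that act on the same convertase rose with diabetes or did not pass. Of 9 convertase regulators, 6 were tested, 4 were called higher in WT mice and 3 in Cfb-/- mice, and 0 were lower. Their median log2 difference was 0.90 in WT and 0.74 in Cfb-/- mice, against 0.29 and 0.22 over all genes. Of all tested genes, 36.2% were called higher and 9.97% lower in WT mice, and 27.4% and 6.4% in Cfb-/- mice. The same shares stand beside the counts of the other complement lists that follow. Thbd, which encodes thrombomodulin, rose by 1.32 in WT mice and 1.21 in Cfb-/- mice. Cd55, which encodes decay-accelerating factor, was called in WT mice only (0.70, adjusted p = 0.0108 from limma, 0.0556 after median-ratio scaling), and its interaction was not called (adjusted p = 0.779). Cr1l, the mouse membrane regulator Crry, was at 21.3 to 23.8 FPKM in group means and was not called.

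Genes of the terminal pathway, which builds the membrane attack complex, split in direction. Of 11 genes 9 were tested, with 5 called higher and 2 lower in WT mice, and 4 higher and 2 lower in Cfb-/- mice. The higher genes in WT mice were C7 (1.91), Clu (1.47), C6 (1.09), Cd59a (0.76), and Cd59b (0.66), of which Clu, Cd59a, and Cd59b encode inhibitors of the complex. In Cfb-/- mice they were Clu (1.59), C6 (1.43), C7 (1.23), and Cd59a (0.59). After median-ratio scaling the adjusted p from limma was 0.137 for Cd59b in WT mice and 0.166 for Cd59a in Cfb-/- mice. Clu, which encodes clusterin, was the most abundant at a mean of 109 and 308 FPKM in WT control and WT diabetic mice. C8g fell in both genotypes, by 1.24 in WT and 1.11 in Cfb-/- mice, C9 fell by 1.13 in WT mice, and C8a fell by 1.05 in Cfb-/- mice. Hc, which encodes C5, had group means of 0.00242 to 0.0641 FPKM and was not tested.

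Receptors for the fragments of C3 and C5 rose in both genotypes. All 7 were tested and 6 were called higher in each genotype, with median log2 differences of 1.58 and 1.93. C3ar1, the receptor of C3a, rose by 2.61 in WT and 2.89 in Cfb-/- mice, and C5ar1, the receptor of C5a, by 2.23 and 1.98. Itgam, Itgax, and Itgb2, which encode the chains of complement receptors 3 and 4, rose by 2.09, 1.42, and 1.58 in WT mice and by 2.44, 1.93, and 1.86 in Cfb-/- mice, with Itgb2 the most abundant of the list at 5.48 and 5.53 FPKM in the diabetic groups. C5ar2 rose by 1.16 and 1.18, and Cr2 was not called in either genotype.

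The classical and lectin pathways made up the longest list. Of 17 genes 16 were tested, with 10 called higher and 3 lower in WT mice and 12 higher and 1 lower in Cfb-/- mice, and median differences of 1.36 and 1.54. After median-ratio scaling, 11 were called higher in Cfb-/- mice. Masp1, a lectin pathway protease, led with 2.43 and 2.86. C1qc (2.02 and 2.39) and C1qa (1.81 and 2.38), chains of the antibody-binding C1q, followed, and C4b, which encodes C4, rose by 1.53 and 2.24. Serping1, which encodes C1 inhibitor, rose by 1.75 in WT mice and was the most abundant of the list there at 66.1 FPKM. C4a fell by 0.92 in WT and 0.97 in Cfb-/- mice, and reads of C4a and C4b, which are near-identical, can be split uncertainly. Mbl2 was lower in WT diabetic mice (-1.28, adjusted p = 0.0185 from limma).

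C2, the neighbour of Cfb, went down with diabetes in WT mice (-0.41, adjusted p = 0.024 from limma) and up in Cfb-/- mice (0.39, adjusted p = 0.0418), and the latter had an adjusted p of 0.492 after median-ratio scaling. It had 16.9, 19.1, and 18.8 FPKM in WT control mice and 13.9, 11.5, and 12.3 FPKM in Cfb-/- control mice, without overlap, as for 13.8% of all genes. The log2 difference of -0.54 had an adjusted p of 0.236 from limma. In diabetic mice the genotypes overlapped, at 14.2 to 18.4 FPKM without Cfb and 11.1 to 17.2 FPKM in WT mice. The interaction of 0.80 had an unadjusted p of 0.000966 from limma (adjusted p = 0.699). Of 10 neighbours of Cfb on chromosome 17, 0 were called between genotypes by limma in diabetic or in control mice, and 1 was called higher and 4 lower with diabetes in WT mice, or 1 higher and 7 lower after median-ratio scaling.

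**Figure D5:**
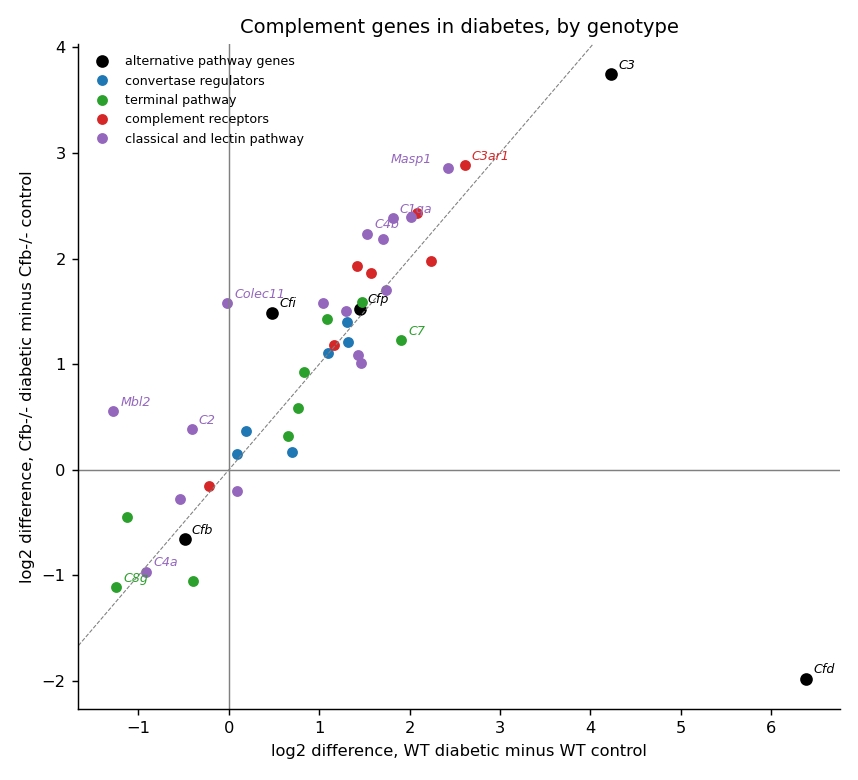
Difference in log2(FPKM + 0.1) with diabetes in WT mice (x axis) and in Cfb-/- mice (y axis) for the tested complement genes, coloured by list, with a dashed line of equality. C3 lies highest at 4.24 and 3.75, Cfd lies alone at the lower right at 6.39 and -1.98, and C8g and C4a lie at the lower left.

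Markers of other cells moved with diabetes alongside C3 and Cfp. All 8 injured tubule markers were called higher in both genotypes, and their summed level was 329 to 461 FPKM in control mice and 1456 to 2891 FPKM in diabetic mice. Of 8 macrophage markers, 8 were called higher in WT mice and 7 in Cfb-/- mice, and their sum was 27.3 to 59.3 FPKM in control mice and 131 to 237 FPKM in diabetic mice. Of the other lists, 6 of 7 B and plasma cell markers tested were called higher in WT mice and 3 in Cfb-/- mice, and 6 of 7 T cell markers in each. After median-ratio scaling these counts were 5 and 1 for B and plasma cell markers and 3 and 5 for T cell markers. Among 4 neutrophil markers tested, 0 were called in WT mice, and 1 was called higher and 1 lower in Cfb-/- mice. Of 8 hepatocyte markers, 3 were called higher and 1 lower in each genotype, and of 8 urothelium markers all 8 were called higher in WT mice and 0 in Cfb-/- mice. Over all tested genes, 36.2% were called higher and 9.97% lower in WT mice, and 27.4% and 6.4% in Cfb-/- mice. The hepatocyte counts in WT mice were near these shares. In WT mice, 2 hepatocyte and 7 urothelium markers were called higher once scaled by median ratios. Their part in the levels of C3, Cfp, and Cfi was not tested.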

How the data were processed

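Stranded mRNA libraries of 14 kidneys were sequenced from both ends. The submitters' processing notes name Trimmomatic, HISAT2, Cufflinks, HTSeq, DESeq, and GRCm38.p6, with no versions of the tools. The authors deposited FPKM for each gene in each mouse, a unit read from the values, which were not whole numbers and whose low steps shrank with transcript length (Spearman correlation -0.725 over 3039 genes). The other deposited columns hold annotations and were not used. Depth in reads is unknown.

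The test covered the 14912 genes that reached 0.1 FPKM in 3 or more mice. A model of log2(FPKM + 0.1) with group means and a trended variance was fitted without rescaling (limma 3.58.1, R 4.3.3), and p-values were adjusted over all genes. The fit was tested on simulated data. Exact two-sided permutation tests of each member were run in scipy 1.17.1. Their smallest p is 0.0286 for 4 mice against 4, 0.0571 for 4 against 3, and 0.1 for 3 against 3. For the interaction, genotype was permuted within diabetic and within control mice, over all assignments. That test assumes no genotype effect in either, so it is not exact for equal responses alone. The labels do not say that mice came from separate litters or cages. The members and gene lists were chosen with earlier results of these data known. Named genes are the members, up to 4 called genes per direction and list, those of counts of 5 or fewer, the most abundant of each list, and the 3 most alike genes of each member. Some genes that this rule names are not reported here.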

Additional observations from a re-analysis of the deposited data

Results flagged for a closer look

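The interaction of genotype and diabetes was -8.36 on the log2 scale for Cfd (exact permutation test over 1400 assignments, two-sided p = 0.0143). Cfd passed the filter on low values only through WT diabetic mice and Cfb-/- control mouse 1, the size of the value depends on the added 0.1, and without Cfb-/- control mouse 1 it was -6.39.

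Cfi differed between genotypes in its response by 1.01 on the log2 scale (exact permutation test, two-sided p = 0.0286), with Cfb-/- control mice the lowest of all. These are 2 of 5 genes tested in this way, and the adjusted p from limma was 0.634 for Cfd and 0.779 for Cfi.

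The residual Cfb of 1.13 FPKM in Cfb-/- diabetic mouse 3 stood apart from the 1.38 to 1.43 FPKM of its group, with a gap of 0.841 of the range. Chance gives about 1 such value in 20 groups, and 9 groups were examined.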

How the results depend on the processing

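The calls of C3 and Cfp with diabetes in both genotypes kept their direction and their side of the threshold under every alternative run. The same held for Cfi with diabetes in Cfb-/- mice and for Cfb between genotypes. Cfd in WT mice also stayed called, but its WT control mice were at or near 0 in every run. The size of its difference moved with the pseudocount, from 3.44 to 8.93, so its call is not counted as robust here. The count of members called between diabetic mice of the 2 genotypes was 1 and became 2, with Cfd added, when only those groups were fitted, and it ranged from 1 to 2 when a mouse was left out. For the interaction the count was 0 and ranged from 0 to 1 when a mouse was left out.

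Differences near 0 changed sign. Cfp between control mice was -0.011 with a pseudocount of 1, -0.053 after median-ratio scaling, and -0.129 after quantile normalization, and ranged from -0.195 to 0.44 when a mouse was left out. The interaction of Cfb was 0.049 with a pseudocount of 1 and ranged from -0.354 to 0.181. When a mouse was left out, Cfi and Cfp between diabetic mice ranged from -0.01 to 0.33 and from -0.117 to 0.34, the interaction of Cfp from -0.341 to 0.31, and Cfd between control mice from -0.271 without Cfb-/- control mouse 1 to 2.70. The residual Cfb with diabetes had a difference of -0.43 with a pseudocount of 1 (adjusted p = 0.117 from limma). The other values of the members gave 187 results of the same direction and call in the alternatives that kept all mice and 329 when a mouse was left out.

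Mice with the same number in 2 groups did not deviate together, with 3 of 19 pairs over a correlation of 0.1, and for 0 of 14 mice was the best match in another group a mouse of the same number, so the numbers were not taken to pair the mice. With the replicate number as a block, the calls over all genes went from 6879 to 6278 for diabetes in WT mice and from 5038 to 4463 in Cfb-/- mice. The residual Cfb with diabetes was then -0.613 (adjusted p = 0.0657 from limma), and the other calls of the members were unchanged. Low values limit Cfd, whose difference between diabetic mice was -3.47 with a pseudocount of 1 and -9.96 with 0.01. Absolute depth is unknown, so a value of 0 cannot be turned into an upper limit.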

Other observations

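Among the lectin pathway genes, Colec11, which encodes a collectin, showed the lowest levels in Cfb-/- control mice, as Cfi did. It had 0.275, 0.185, and 0.318 FPKM there, 0.763 to 1.28 FPKM in WT control mice, 0.823 to 0.966 FPKM in WT diabetic mice, and 0.591 to 1.49 FPKM in Cfb-/- diabetic mice. The difference between control mice was -1.53 on the log2 scale (unadjusted p = 6.09e-05, adjusted p = 0.168 from limma), without overlap of the groups. In that comparison, groups did not overlap for 13.8% of all genes, and 17.5% had an unadjusted p under 0.05. Colec11 was chosen after its values were seen.

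Cfb-/- control mouse 1, the control mouse with Cfd at 6.01 FPKM, also had 3.58 FPKM of Ucp1, the uncoupling protein of brown fat, against 0 to 0.114 FPKM in the other 13 mice.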
